A study of Rattus norvegicus with 26 samples.

Results

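A set of 10 neighbouring features of rat chromosome 20 are described here across 26 RNA sequencing libraries of rat hepatocytes and liver. They lie between 3973420 and 4508214 (positions are those in the deposited files, and the sources used here name no genome build), a window that carries the working name MHC class II region. The count files list 32552 rows, of which 35 fall wholly inside the window, and the 10 described were chosen by their raw counts, as the rows with the highest sum over all libraries. They are numbered 1 to 10 in order of position. The bounds of the window were selected on another measured value, a stretch of neighbouring rows with lower counts in fetal than in adult hepatocytes. Fetal and adult levels therefore describe how the rows were chosen, and the calls given for that difference only show how the window was set. The comparisons among fetal sorts and between colony and host tissue did not set the bounds. The fetal sorts do enter the fetal level, and every library enters the summed counts, so the choice was not fully apart from them.

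Class II molecules of the major histocompatibility complex are paired alpha and beta chains that hold peptides taken from proteins digested inside the cell and show them to CD4+ T cells. Macrophages, dendritic cells and B cells carry most of them, and hepatocytes are known for carrying little unless stimulated, with interferon gamma as the best known stimulus. Genes for the transport and cutting of peptides for class I molecules, the pathway open to nearly all cells, lie among the class II genes in mammals. The deposited rows carry identifiers only, and the RefSeq table used here (assembly GRCr8) pairs 0 of the 32552 identifiers with a symbol. In that table the 10 class II symbols that were looked up all lie on chromosome 20, and 16 protein-coding genes stand between the first and the last of them, these included. The remaining 6 are Tap1 and Tap2 (subunits of the peptide transporter), Psmb8 and Psmb9 (subunits of the immunoproteasome), Brd2 (a bromodomain protein) and Brd2l. No feature could be assigned to any of these genes, so the working name could not be checked against gene symbols, no feature is given a role, and the rows are called by their position.

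The study set rat fetal hepatocytes against adult ones before transplantation and looked for the difference in liver tissue after it. After transplantation, laser capture took colony tissue (5 libraries), labelled as grown from the fetal cells, and the adult host liver around it (5 libraries). Each kind of tissue carries the replicate numbers 242, 243, 246, 248 and 249, read here as 5 animals that gave both. Before transplantation there were 3 sorts of immunopurified fetal hepatocytes, labelled LAP+/OC2+, LAP+/OC2- and LAP+ (4 libraries each), and adult hepatocytes (4 libraries), and the labels do not spell out LAP or OC2. Strain, age, sex, the treatment of the hosts and how tissue was picked for capture were not given in the labels. The libraries are called biological replicates, but the labels do not say which cell libraries came from separate animals, so p-values measure the spread between these libraries.

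Library totals ran from 7871347 to 16874438 counts. The LAP+/OC2+ libraries stood apart: 38.9% to 78.6% of their counts fell on mitochondrial features, against 4.11% to 10.3% in the LAP+/OC2-, LAP+ and adult libraries. The 10 features together took 910 to 2394 raw counts in LAP+/OC2+ libraries, against 5582 to 20123 in every other library. Levels are given in CPM, counts per 1000000 of the TMM-scaled library size. Cells and captured tissue were made into libraries with different kits, so no level was compared between the stages. In bulk RNA, fewer cells of a type and less RNA per cell cannot be told apart, and the marker lists of macrophages, dendritic cells, B cells and other liver cells could not be applied without gene symbols.

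The features fall into 2 clusters with a gap between features 4 and 5. Feature 1 (ENSRNOG00000000459, 3973420 to 3978845, minus strand, 1520 nt of exon), feature 2 (ENSRNOG00000000457, 3979035 to 3989669, plus strand, 4137 nt) and feature 3 (3990613 to 3993769, plus strand, 2066 nt) follow each other closely. Feature 4 lies at 4039413 to 4049711 (plus strand, 4048 nt). Feature 5 (ENSRNOG00000030729, 4302344 to 4316715, minus strand, 5317 nt) and feature 6 (ENSRNOG00000000443, 4302347 to 4508214, minus strand, 5457 nt) start within a few bases of each other. They share 751 exon bases on the same strand, 14.1% of feature 5 and 13.8% of feature 6, and no label says how reads in those bases were counted. Feature 6 runs to the end of the window, and its long span encloses feature 7 (4357733 to 4362682, plus strand, 2954 nt), feature 8 (4366246 to 4368693, minus strand, 1196 nt), feature 9 (4381455 to 4401610, minus strand, 3139 nt) and feature 10 (4414276 to 4422283, plus strand, 3183 nt), none of which shares an exon base with it. Feature 6 held 94789 raw counts over the 26 libraries, 38.0% of all counts in the window. The last row kept, feature 1, held 5788 counts, and the first row left out, at 4436419 to 4486680, held 4334.

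**Figure D1:**
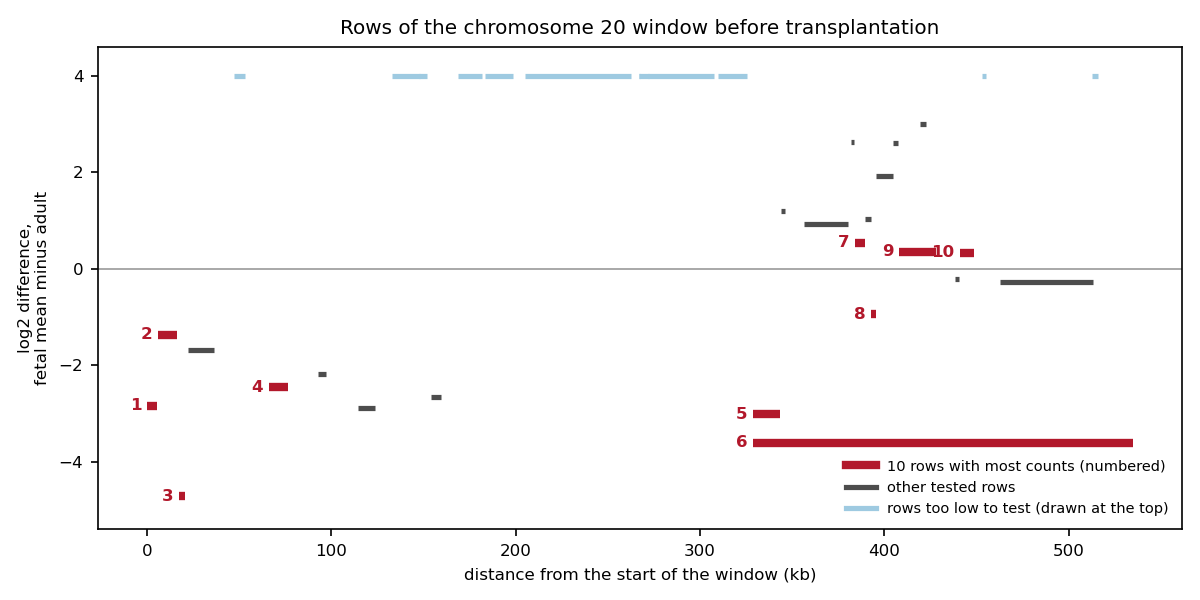
Rows of the chromosome 20 window by distance from its start (kb) and by log2 difference, fetal mean minus adult. Features 1 to 6 sit between -1.37 and -4.72 and features 7 to 10 between -0.95 and 0.54. Rows too low to test before transplantation are drawn at the top edge and have no value.

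Before transplantation features 1 to 6 were lower in fetal than in adult hepatocytes, taking the average of the sorts, and features 7 to 10 were close to the adult level or differed less. The 23 rows of the window tested at that stage begin with 10 neighbours that were lower at an adjusted p under 0.05 with a log2 difference of -1 or below (22.1% of 13818 features tested across the genome). That stretch holds features 1 to 6 and 4 rows of lower total count, so 6 of the 10 features described here belong to it. The other 4, features 7 to 10, were kept for their counts and lie inside the span of feature 6. Nothing is read from that count, since the same difference set the window.

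Feature 3 had the largest difference of the 10. It stood at 6.70, 4.74, 4.07 and 3.79 CPM in LAP+/OC2+ cells, 2.77, 3.82, 2.75 and 2.86 CPM in LAP+/OC2- cells and 5.17, 1.32, 2.12 and 2.45 CPM in LAP+ cells, against 72.6, 111, 86.2 and 90.3 CPM in adult cells. Every fetal library lay far below every adult library, and the log2 difference of the fetal mean from adult was -4.72. Feature 6 had 6.44, 13.0, 6.52 and 7.47 CPM in LAP+/OC2+ cells, 71.0, 88.0, 88.8 and 81.8 CPM in LAP+/OC2- cells and 115, 75.3, 83.3 and 84.8 CPM in LAP+ cells, against 334, 789, 413 and 395 CPM in adult cells. The order of its levels was adult above LAP+ and LAP+/OC2-, which overlapped, above LAP+/OC2+, and the log2 difference of the fetal mean was -3.61. Adult library 2 was the highest of the adult libraries for 8 of the 10 features, features 5, 6 and 7 among them. That library also stood apart from the other adult libraries over all features.

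Feature 2 had another order of levels. It stood at 45.9, 65.7, 76.7 and 70.4 CPM in LAP+/OC2+ cells, 16.1, 12.8, 12.5 and 14.1 CPM in LAP+/OC2- cells and 10.8, 13.1, 15.5 and 11.3 CPM in LAP+ cells, against 50.6, 70.0, 55.2 and 56.1 CPM in adult cells. LAP+/OC2+ and adult libraries overlapped, with a log2 difference of 0.16, while the LAP+/OC2- and LAP+ libraries lay below the adult ones, with log2 differences of -2.06 and -2.20. For features 1, 4 and 5 the log2 differences of the fetal mean were -2.84, -2.46 and -3.01 in that order. In the fetal mean features 7 to 10 lay nearer to the adult level, with 0.54 for feature 7, -0.95 for feature 8, 0.35 for feature 9 and 0.33 for feature 10. Feature 8 differed by sort, with log2 differences from adult of -1.81 in LAP+/OC2+, -0.50 in LAP+/OC2- and -0.53 in LAP+ cells.

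**Figure D2:**
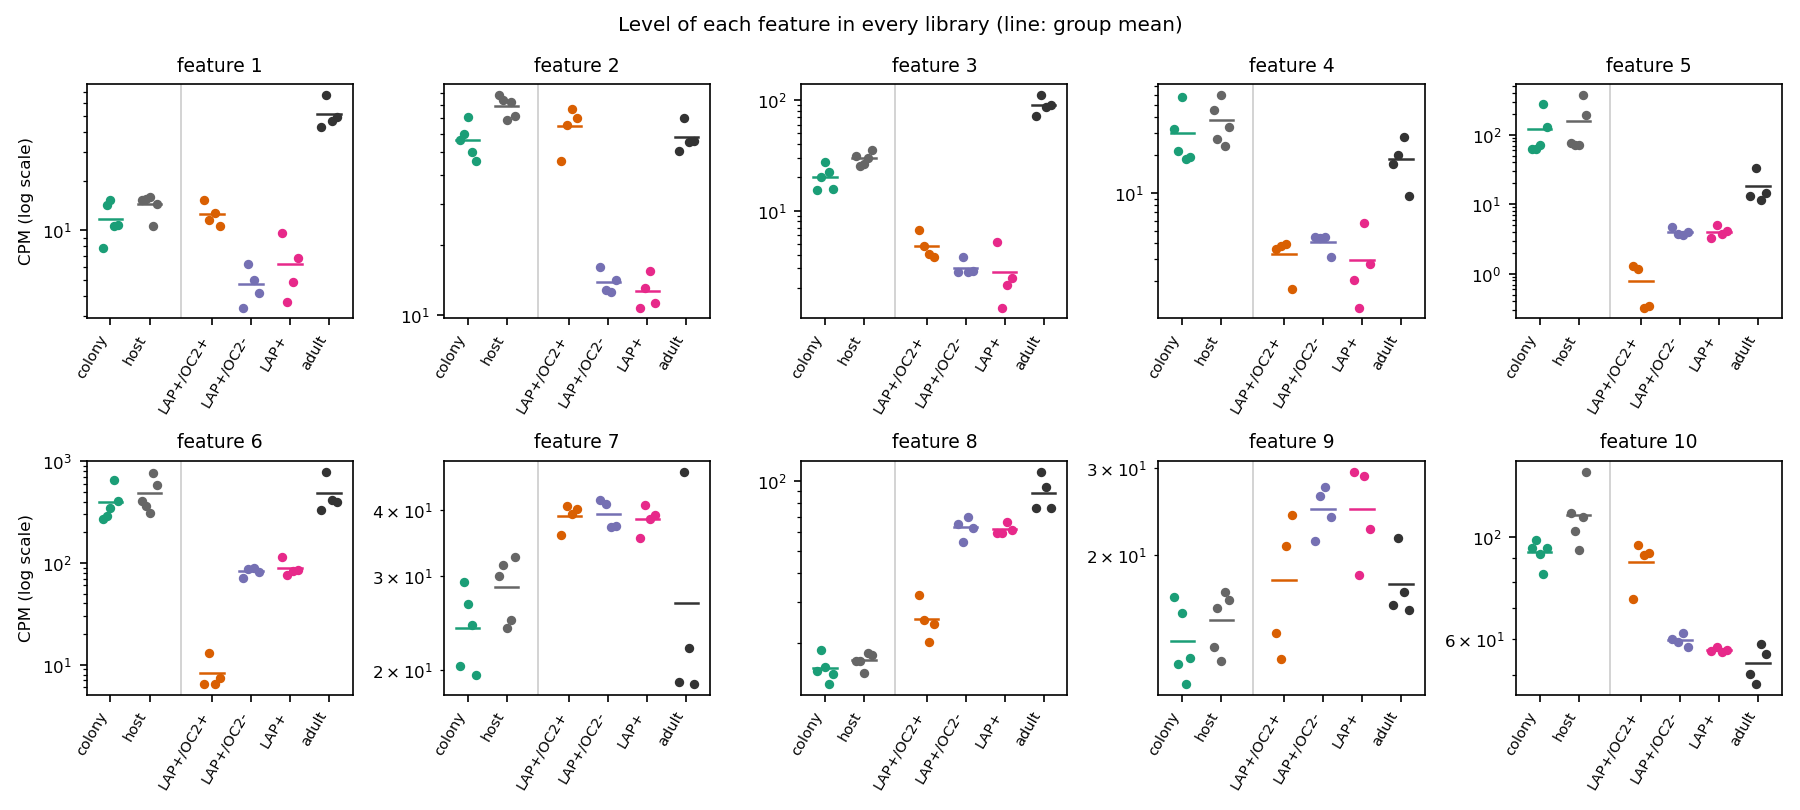
CPM of each feature (log scale) in every library, by group, with the group mean as a line, and a vertical line between captured tissue and cells, which used different kits. Feature 6 sits at 6.44 to 13.0 CPM in LAP+/OC2+ cells, below the other fetal sorts and the adult cells, and feature 2 at 45.9 to 76.7 CPM, among the adult libraries.

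Among the fetal sorts, LAP+/OC2+ cells were the ones that differed. Compared with LAP+/OC2- cells, features 1, 2 and 10 were higher and features 5, 6 and 8 were lower (edgeR quasi-likelihood test, Benjamini-Hochberg adjusted p under 0.05 over 13818 features), and features 3, 4, 7 and 9 did not pass. That is 6 of 10 features called, where 67.5% of all features tested were called (30.8% higher and 36.6% lower), so the share called in the window was near that of the genome. The median log2 difference was -0.19 over the 10 features and -0.18 over all features tested. Neighbours within the window differed in direction.

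Feature 6 had the largest difference of the 10. Its levels in LAP+/OC2+ cells, 6.44 to 13.0 CPM, did not overlap the 71.0 to 88.8 CPM of LAP+/OC2- cells. Its mean was 8.37 ± 3.15 CPM in LAP+/OC2+ cells and 82.4 ± 8.22 CPM in LAP+/OC2- cells (n = 4 each, ± SD), a fitted log2 difference of -3.31 (SE 0.29, edgeR adjusted p = 4e-08). The overlapping feature 5 was lower as well, at 1.29, 1.19, 0.33 and 0.34 CPM in LAP+/OC2+ cells, against 4.73, 3.68, 3.65 and 4.00 CPM in LAP+/OC2- cells. The groups did not overlap, but the LAP+/OC2+ values rest on 5, 5, 2 and 3 reads, and the fitted log2 difference of -2.54 (SE 0.47, edgeR adjusted p = 0.00014) is correspondingly uncertain in size. Whether reads in the exon bases shared by features 5 and 6 entered both counts was not tested.

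Feature 8, the shortest of the 10, was also lower. It stood at 32.2, 25.1, 20.2 and 24.1 CPM in LAP+/OC2+ cells, against 65.1, 54.3, 69.9 and 62.9 CPM in LAP+/OC2- cells. No LAP+/OC2+ library reached the lowest LAP+/OC2- library, and the log2 difference was -1.32 (SE 0.15, edgeR adjusted p = 1.1e-06). Feature 8 is enclosed by the span of feature 6 on the same strand without a shared exon base.

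Feature 2 was the most raised of the 10 in LAP+/OC2+ cells. It averaged 64.7 ± 13.3 CPM in LAP+/OC2+ cells and 13.9 ± 1.62 CPM in LAP+/OC2- cells (n = 4 each, ± SD), with a log2 difference of 2.22 (SE 0.17, edgeR adjusted p = 1.1e-08). The lowest LAP+/OC2+ library, at 45.9 CPM, lay well above the highest LAP+/OC2- library, at 16.1 CPM. Its neighbour on the opposite strand, feature 1, stood at 15.2, 11.6, 12.7 and 10.7 CPM in LAP+/OC2+ cells, against 3.37, 6.21, 5.00 and 4.15 CPM in LAP+/OC2- cells (log2 difference 1.41, SE 0.27, edgeR adjusted p = 0.00021). Feature 3, directly beyond feature 2, averaged 4.83 ± 1.31 CPM in LAP+/OC2+ cells and 3.05 ± 0.52 CPM in LAP+/OC2- cells, and its log2 difference of 0.62 (SE 0.33) did not pass (edgeR adjusted p = 0.11). Feature 3 was called higher in 3 alternative settings, with DESeq2 (log2 difference 0.77, adjusted p = 0.042), with only the 8 libraries compared (adjusted p = 0.035) and without LAP+ library 1 (adjusted p = 0.029). The row after it, starting at 3995544 and outside the 10, was called higher too (log2 difference 1.70, SE 0.44, edgeR adjusted p = 0.0026), on 2 to 19 reads a library in LAP+/OC2+ cells. It was named after its values were seen.

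Feature 10 had a smaller difference in a tighter set of values. It stood at 73.5, 96.3, 91.4 and 92.3 CPM in LAP+/OC2+ cells, against 59.9, 59.1, 61.9 and 57.7 CPM in LAP+/OC2- cells, with no overlap (log2 difference 0.57, SE 0.11, edgeR adjusted p = 0.0002). Feature 7 had close means, 39.1 CPM in LAP+/OC2+ cells and 39.4 CPM in LAP+/OC2- cells. Its log2 difference was -0.01 (SE 0.23, edgeR adjusted p = 0.97). Feature 9 had 13.9, 12.3, 20.9 and 24.0 CPM in LAP+/OC2+ cells, against 21.3, 26.3, 27.4 and 23.9 CPM in LAP+/OC2- cells (log2 difference -0.46, SE 0.21, edgeR adjusted p = 0.062). Feature 4 had 14 to 24 reads a library in LAP+/OC2+ cells, and its log2 difference of -0.38 had an SE of 0.44 (edgeR adjusted p = 0.46).

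The mitochondrial share moved with the same contrast, at 38.9% to 78.6% in LAP+/OC2+ cells and at most 10.3% in the other cell libraries. With mitochondrial features removed from the counts, features 1, 2, 5, 6, 8 and 10 kept their call and their direction, and feature 9 was called lower as well (log2 difference -0.47, edgeR adjusted p = 0.048). The main fit was already TMM-scaled, so this setting could move the values little. The sort and the mitochondrial share cannot be told apart here. Feature 9 was also called lower in 5 other settings, with adjusted p of 0.014 to 0.048. Against LAP+ cells the LAP+/OC2+ libraries gave the same 6 calls. The log2 differences from LAP+ were 1.00 for feature 1, 2.36 for feature 2, -2.56 for feature 5, -3.43 for feature 6, -1.28 for feature 8 and 0.64 for feature 10 (edgeR adjusted p at most 0.0035, with 67.8% of all features called). The LAP+/OC2+ libraries are shared by both comparisons, so the second is not separate evidence.

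**Figure D3:**
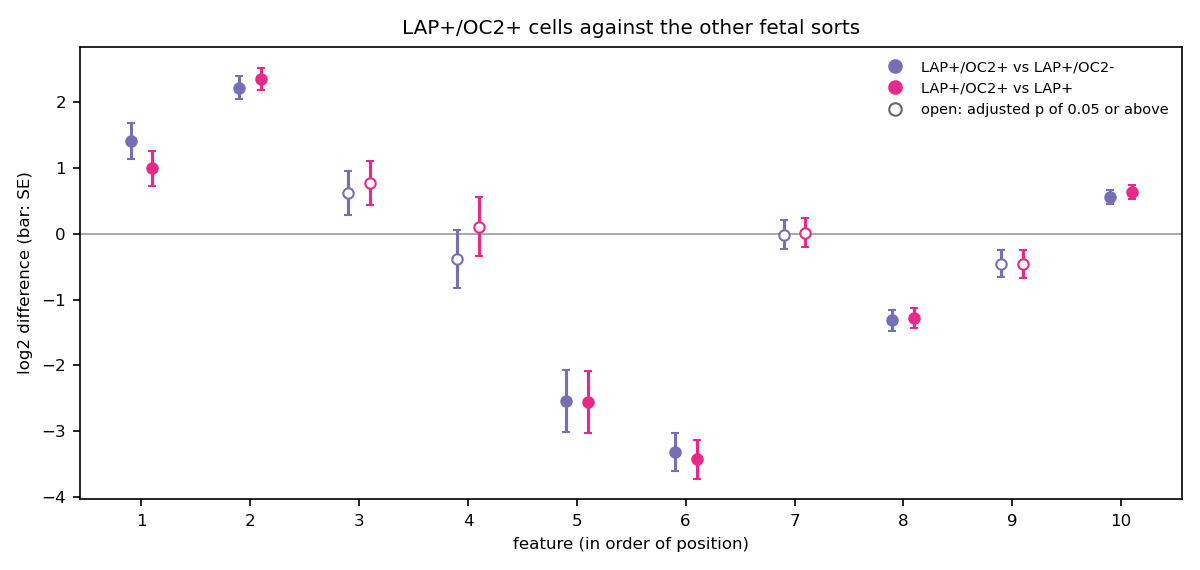
Log2 differences of features 1 to 10, LAP+/OC2+ against LAP+/OC2- and against LAP+ cells, with bars of 1 SE on each side and open points for adjusted p of 0.05 or above. Features 1, 2 and 10 are above 0 and features 5, 6 and 8 below it in both, with feature 6 lowest at -3.31 and -3.43.

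Between LAP+/OC2- and LAP+ cells none of the 10 features was called, where 0.391% of 13818 features were. No call among so few features is near that share. None of the 10 had an unadjusted p under 0.05 with edgeR, DESeq2 or limma-voom, where 915 of the 13818 features did with edgeR. The log2 differences lay between -0.41 and 0.48. Feature 6 averaged 82.4 ± 8.22 CPM in LAP+/OC2- cells and 89.6 ± 17.5 CPM in LAP+ cells, and feature 2 averaged 13.9 ± 1.62 CPM in LAP+/OC2- cells and 12.6 ± 2.12 CPM in LAP+ cells (n = 4 each, ± SD). Features 1, 3 and 4 varied most among the LAP+ libraries. LAP+ library 1 had 9.68 CPM of feature 1 and 5.17 CPM of feature 3, the highest of its group, and LAP+ library 3 had 5.77 CPM of feature 4, against 1.23 CPM in library 2.

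Feature 6 made up less of the sum of the 10 features in LAP+/OC2+ cells than in the other groups of cells. The 10 features summed to 234.5 to 276 CPM in LAP+/OC2+ cells, 291 to 314 CPM in LAP+/OC2- cells, 276 to 327 CPM in LAP+ cells and 692 to 1316 CPM in adult cells. Over all 35 rows of the window the order of these sorts turned, at 421 to 571 CPM in LAP+/OC2+ cells and 341 to 365 CPM in LAP+/OC2- cells. The log2 difference of the summed level was -0.18 for the 10 features, 0.447 for all rows and -1.15 for the 10 features without TMM scaling. The 10 were kept by summed raw counts, to which LAP+/OC2+ libraries gave least, so the choice can leave out rows high mainly in those cells. Feature 6 gave 2.36% to 4.75% of the sum of the 10 features in LAP+/OC2+ cells and 24.4% to 29.4% in LAP+/OC2- cells. It gave 27.3% to 35.2% in LAP+ cells and 48.3% to 59.9% in adult cells. Per kb of exon, feature 10 had the highest mean level in LAP+/OC2+ cells (27.8 CPM per kb), feature 8 in LAP+/OC2- cells (52.7) and LAP+ cells (51.5), and feature 6 in adult cells (88.5). Features 7 to 10 alone summed to 155 to 181 CPM in LAP+/OC2+ cells, 181 to 196 CPM in LAP+/OC2- cells, 176 to 190 CPM in LAP+ cells and 161 to 226 CPM in adult cells.

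After transplantation all 10 features were tested between colony and host tissue with the animal as a block, and all 10 log2 differences were negative. The other tested rows of the window went both ways. They ran from -0.76 for the row at 4317440 to 1.37 for the row at 4141878, with no call. Feature 2 alone was called lower in colony tissue (edgeR quasi-likelihood test, adjusted p under 0.05), 1 of 10 where 1.17% of 22303 features were called and 0.610% were called lower. An unadjusted p under 0.05 was found for 6 of the 10, and for 4235 of the 22303 features tested. The median log2 difference was -0.30 over the 10 features and 0.11 over all features tested, of which 42.8% were negative. Among the 7859 features with a mean of at least 10 CPM, a range that takes in all 10 here, the median was -0.17 and 80.6% were negative, so most features of like level also had negative values. Of these 7859, 2131 had an unadjusted p under 0.05.

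Feature 2 stood at 56.6, 59.7, 71.0, 50.3 and 45.7 CPM in colony tissue of animals 242, 243, 246, 248 and 249, against 87.9, 83.6, 68.6, 82.0 and 71.2 CPM in host tissue of the same animals. Colony was below host in 4 of 5 animals, and animal 246 was level. Its mean was 56.7 ± 9.69 CPM in colony and 78.7 ± 8.33 CPM in host tissue (n = 5 each, ± SD), with a log2 difference of -0.48 (SE 0.13, edgeR adjusted p = 0.048). The call was marginal, with adjusted p between 0.00082 and 0.37 over 13 alternative settings and a call in 6 of them. It was lost in turn without animal 242 (adjusted p = 0.37), 243 (0.18), 248 (0.11) or 249 (0.34).

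Feature 3 had the largest fitted difference. It stood at 15.5, 20.3, 27.6, 22.5 and 15.8 CPM in colony tissue, against 31.4, 25.2, 26.4, 29.9 and 35.7 CPM in host tissue, in the same order of animals. Animals 242 and 249 were apart by about 1 log2 unit, at -1.02 and -1.18, and animal 246 was level at 0.07. The fitted log2 difference of -0.57 (SE 0.16) did not pass (edgeR adjusted p = 0.063). Features 1 and 4 to 6 had fitted log2 differences between -0.30 and -0.40, and features 7 to 10 between -0.12 and -0.26, with no call.

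Animal 246 differed from the other animals over the 10 features. In its tissue 4 of 10 features were lower in colony than in host, with a median log2 difference of 0.06. In animals 242, 243 and 248 the count was 9 of 10 and in animal 249 it was 10 of 10, with medians of -0.53, -0.25, -0.41 and -0.55 in the order 242, 243, 248 and 249. The same counts and medians were not taken by animal over all features. These values therefore do not set the 10 features apart from the rest. Without animal 246, 5 of the 10 features were called lower in colony tissue, features 2 to 6. Over the genome the number of calls went up as well, to 2683 of 21907 features tested (12.2%), 1628 of them lower. Animal 246 thus bore on far more features than these 10.

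**Figure D4:**
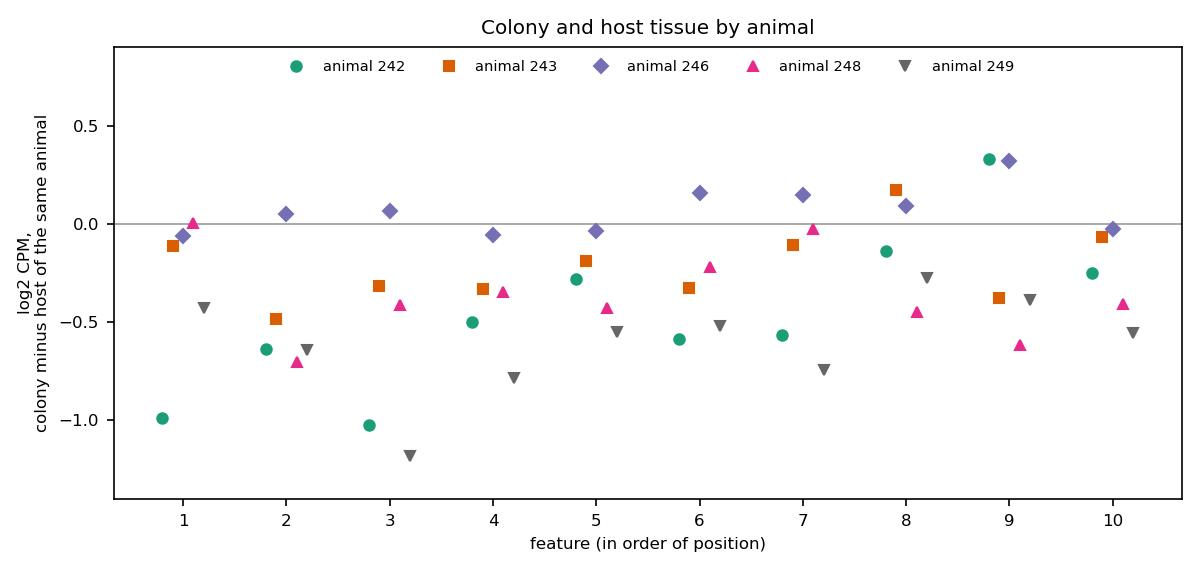
Log2 CPM of colony minus host tissue of the same animal for features 1 to 10, with a symbol per animal. Most points lie below 0, down to -1.18 for feature 3 in animal 249, and 6 of the 10 points of animal 246 lie above 0.

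For features 4, 5 and 6 the animals differed more than the tissues did. Feature 5 had 63.4, 61.6, 70.4, 276 and 130 CPM in colony tissue, against 77.1, 70.2, 72.2, 372 and 191 CPM in host tissue. Animals 248 and 249 were the highest in colony and in host tissue alike. Feature 6 had 273, 287, 345, 655 and 406 CPM in colony tissue, against 409, 360, 309, 763 and 582 CPM in host tissue, with the same animals on top. Feature 4 followed another order, with 32.0, 21.4, 57.2, 18.6 and 19.2 CPM in colony tissue and 45.2, 26.9, 59.5, 23.6 and 33.2 CPM in host tissue, and animal 246 was the highest in both. The group means carry this spread, as for feature 5 at 120 ± 91.4 CPM in colony and 156 ± 131 CPM in host tissue (n = 5 each, ± SD).

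The share of feature 5 in the sum of features 5 and 6 varied with the animal too. It was 18.9%, 17.7%, 16.9%, 29.6% and 24.3% in colony tissue, against 15.9%, 16.3%, 18.9%, 32.8% and 24.7% in host tissue. The share was 4.41% to 16.7% in LAP+/OC2+ cells, on few reads, 3.95% to 6.25% in LAP+/OC2- cells, 2.73% to 6.31% in LAP+ cells and 2.68% to 4.05% in adult cells. Kit and material changed between cells and tissue, so the shares of tissue and cells are given side by side only.

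**Figure D5:**
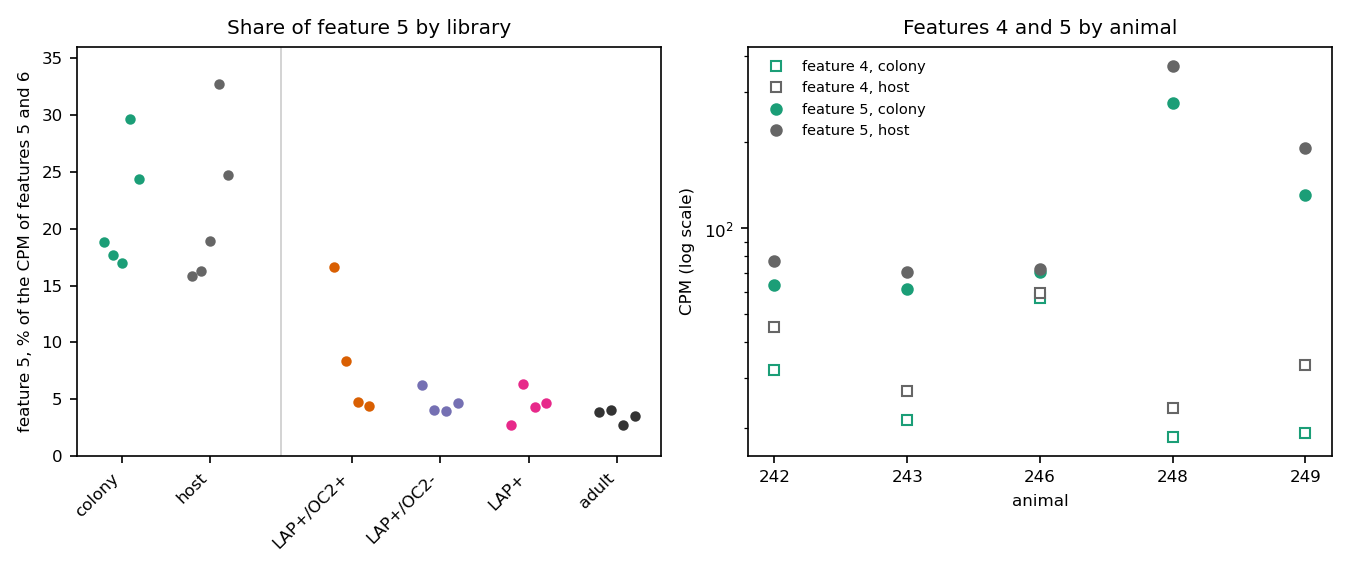
Left, share of feature 5 in the summed CPM of features 5 and 6 (%) in every library by group. Right, CPM of features 4 and 5 (log scale) by animal in colony and host tissue, where animal 246 is highest for feature 4 (57.2 and 59.5 CPM) and animal 248 for feature 5 (276 and 372 CPM).

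In captured tissue feature 6 again led per kb of exon, at 72.1 CPM per kb in colony and 88.8 CPM per kb in host tissue. Feature 10 followed, at 29.1 CPM per kb in colony and 35.1 in host tissue, and feature 5 was next at 22.6 CPM per kb in colony and 29.4 in host tissue. The 10 features summed to 594.5 to 1165 CPM in colony tissue and 697 to 1451 CPM in host tissue, and feature 6 gave 45.8% to 56.3% of the sum in colony and 44.4% to 52.6% in host tissue. The order of the features within the window was nearly the same in the tissues: feature 9 was the lowest per kb in each, and features 3 and 8 changed places.

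The 10 features did not vary as 1 unit within groups. Over the 26 libraries, deviations of log2(CPM + 1) from the group mean correlated between pairs of features with r from -0.355 to 0.811, a median of 0.168, and 33 of 45 pairs above 0. These values are a description, since the features share libraries and their depth, and no other set of features was measured for comparison. By the same measure, 10188 features outside the window with a mean of at least 5 CPM were ranked by their likeness to the mean deviation of the 10. The 5 most alike lay on chromosome 6 (43393113 to 43400328, r = 0.875), chromosome 1 (222844144 to 222877193, r = 0.826), chromosome 19 (37909546 to 37912027, r = 0.81), chromosome 9 (100080144 to 100089834, r = 0.795) and chromosome 2 (243700784 to 243740899, r = 0.794). None of the 5 lies on chromosome 20, and the share of the ranked features on that chromosome was not counted.

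The 10 tested features on each side of the window gave a measure of its surroundings. Between LAP+/OC2+ and LAP+/OC2- cells, 5 were higher and 4 lower on the left (3730955 to 3859018), and 2 were higher and 7 lower on the right (4510034 to 4615247), beside the 3 higher and 3 lower of the 10 features within. Over all features tested 67.5% were called in that comparison, 30.8% higher and 36.6% lower. Neither side held a feature called between colony and host or between LAP+/OC2- and LAP+ cells. Over all features 1.17% and 0.391% were called in these, so no call among so few features is near those shares. Mixed directions between the OC2 sorts were thus seen in the window, beside it and over the genome.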

How the data were processed

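The authors deposited raw counts per feature, with exon coordinates, strand and length, per the file headers. Reads had passed through bcl2fastq 2.17, Trimmomatic 0.36, STAR 2.5.2b and Subread 1.5.2 with its featureCounts program, per the submitters' processing notes. Genome build, annotation release and strand setting were not given in the sources used here, so reads of antisense neighbours and near-identical copies, common in this gene complex, may be shared between rows. Cell RNA was isolated with RNeasy and made into libraries with NEBNext Ultra, and RNA of captured tissue with PicoPure and a stranded SMARTer Pico kit, per the labels.

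Tests on the counts used edgeR 4.0.16 in R 4.3.3 (TMM scaling, filterByExpr, robust quasi-likelihood test) and Benjamini-Hochberg adjustment over all features tested, at 0.05. The 16 cell libraries were fitted together. The 10 tissue libraries were fitted with the animal as a block, since host tissue is given as lying around the colonies and both carry the same 5 numbers, although the labels do not call the numbers animals. Colony and host deviations of an animal correlated between -0.223 and 0.44, above 0.1 in 3 of 5 animals. Each of 44 replicate pairs differed beyond counting noise, with a chi-square divided by its degrees of freedom of 5.21 to 289.95. The test was run on simulated data with 200 features changed. Those data held no differences between animals, so they do not check the animal block. Alternatives were RLE size factors, DESeq2 1.42.0, limma-voom of limma 3.58.1, other filters, mitochondrial features removed, fits with and without the block and each library left out.

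The features, lists and tests were chosen with earlier results of these data known. All 10 features are named, with the rows beside the limit on summed counts, the 5 features most alike and 10 neighbours on each side. At most 2 identifiers that rose and 2 that fell are printed. Lists by gene symbol could not be applied, and a planned test of the summed window level was left out because its members were chosen, so sums are given as values. Library totals of 7871347 to 16874438 counts set the precision, and counting error is its lower limit.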

Additional observations from a re-analysis of the deposited data

Results flagged for a closer look

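In 7 of 60 combinations of a feature and a group, 1 library stood far from the rest of its group by Dixon's test, which flags about 1 group in 20 by chance. Adult library 2 was high for feature 5, at 33.3 CPM where the other adult libraries had 11.4 to 14.5 CPM, and for feature 7, at 47.3 CPM where they had 18.8 to 22.0 CPM. Over all features, pairs with adult library 2 had a chi-square divided by its degrees of freedom of 107 to 125. Pairs of the other adult libraries had 21.9 to 40.9, so that library differed well beyond these features. LAP+/OC2+ library 2 was high for feature 6, at 13.0 CPM beside 6.44 to 7.47 CPM. LAP+/OC2+ library 4 was low for feature 4, at 1.72 CPM beside 3.61 to 3.91 CPM, on 15 reads. LAP+/OC2- library 5 was low for feature 4, at 3.11 CPM beside 4.37 to 4.50 CPM. LAP+/OC2- library 3 was high for feature 3, at 3.82 CPM beside 2.75 to 2.86 CPM. Host tissue of animal 248 was low for feature 1, at 10.6 CPM where the other animals had at least 14.5 CPM. The causes were not tested.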

How the results depend on the processing

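The 6 calls of LAP+/OC2+ against LAP+/OC2- cells kept their direction and their side of the threshold under all alternatives run, and so did the 6 against LAP+ cells. With the replicate number as a block there were again 6, 6 and, for LAP+/OC2- against LAP+, 0 calls. The labels do not say that these numbers pair the cell libraries. Deviations of equal numbers correlated with r from -0.507 to 0.214, a range that overlaps that of the tissues and cannot settle it. Feature 7 lay near 0 and changed sign in the first comparison, to 0.121 with DESeq2 and with RLE size factors, 0.045 with limma-voom, 0.05 with only the 8 libraries compared, 0.041 with the stricter filter, and to 0.006 without LAP+/OC2+ library 1 and 0.009 without LAP+/OC2- library 1, within a range of -0.049 to 0.009 over the libraries left out. Features 3 and 9, not called there, were called in 3 and 6 alternative settings. RLE scaling moved the median of all features there from -0.18 to -0.05. The summed level of the 10 features, -0.18 on the log2 scale between LAP+/OC2+ and LAP+/OC2- cells, was 0.447 with all rows of the window and -1.15 with library totals without TMM. Between colony and host, where 1 of 10 features was called, limma-voom called 4, no low-count filter 2, the stricter filter 0, no block 0 (feature 2 adjusted p = 0.23) and a filter by group size, chosen after seeing the data, 0. Leaving out 1 animal gave 0 to 5 calls, where 0% to 12.2% of all features tested were called. The cause was not tested. Over all features, colony calls numbered 262 (1.17% of those tested), against 751 without a filter (2.48%) and 6 with the stricter filter (0.0368%). They numbered 717 with DESeq2 (4.41%), 3353 with limma-voom (15%) and 0 without the block. Feature 5 had only 2 to 5 reads in LAP+/OC2+ libraries, which limits how well the size of its difference is known.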

Other observations

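Rows of the window outside the 10 included the largest difference between the OC2 sorts. The row at 4355175 to 4357107, just before feature 7, had 99.0, 179, 87.1 and 50.0 CPM in LAP+/OC2+ cells, against 1.48 to 3.45 CPM in LAP+/OC2- cells (log2 difference 5.65, SE 0.54, edgeR adjusted p = 1.7e-07). LAP+ libraries 1 and 4 stood at 7.33 and 13.6 CPM and libraries 2 and 3 at 2.91 and 3.55 CPM. The rows starting at 4363152 and 4378206, between features 7 and 9, were higher as well, by 2.98 and 3.17 on the log2 scale (edgeR adjusted p = 6.6e-09 and 8.6e-06). These were named after their values were seen.

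A group of 4 rows between features 4 and 5, starting at 4141878, 4156858, 4178686 and 4240270, had low levels in every group. In cells they stood at 0 to 0.516 CPM, except the row at 4178686, which had 2.58 CPM (10 reads) in LAP+/OC2+ library 1 and 0.711 CPM in library 2. The row at 4240270 had 9.94, 3.57, 5.33, 8.74 and 6.38 CPM in colony tissue, against 2.26, 1.81, 4.64, 3.46 and 2.59 CPM in host tissue of the same animals, higher in colony in 5 of 5 animals. It did not pass (log2 difference 1.18, SE 0.33, edgeR adjusted p = 0.058), and neither did the other 3, with log2 differences of 0.53 to 1.37. The rows starting at 4066132, 4087618 and 4127644 had, like feature 4, their highest adult value in library 3 and their lowest in library 4. Adult library 3 had 22.7, 28.3 and 33.5 CPM of them in that order, and adult library 4 had 6.15, 6.82 and 11.2 CPM.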
